A study of Mus musculus with 12 samples.

Results

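The change in gene expression of the lung between postnatal days 14 and 36 (P14 and P36) was examined in mice labelled CKO, a conditional knockout of the transcription factor gene Tbx4. The comparison used 6 of the 12 RNA sequencing libraries of the study, the 3 labelled CKO at P36 and the 3 labelled CKO at P14. It covered the 15372 expressed genes on autosomes, of 15923 expressed genes in all. The other 6 libraries, 3 at each age, came from mice labelled Control, which carry Tbx4 alleles flanked by loxP sites (Tbx4fl/fl) and served here as a second series of the same ages. The design text writes the knockout as TBX4-CKO. The Cre driver, the cells it acts in and the part of the gene that is removed are not stated in the labels, and neither are the strain and the number of animals. Whole lung tissue was sampled, and no treatment is labelled. The series title names the purpose of the study, which is to learn how the postnatal lung develops without Tbx4 and whether pulmonary hypertension follows.

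Tbx4 belongs to the T-box family of DNA-binding proteins and marks the mesenchyme of the embryonic lung. In human families, variants of TBX4 are linked to pulmonary hypertension and to disorders of lung growth. In the mouse, most alveoli form after birth, when septa grow out of the walls of the early airspaces. During that phase myofibroblasts lay down elastin at the septal tips, and alveolar type 2 cells make surfactant and give rise to the flat type 1 cells of gas exchange. Later the septa thin, proliferation declines, and lymphocytes increase.

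The 6 CKO libraries held 17806206 to 23667882 counts. As a check of the tissue label, the surfactant gene Sftpc stood at 3907 to 6256 CPM (counts relative to the scaled library total) and the endothelial gene Pecam1 at 558 to 708 CPM. Replicates 2 and 3 at P14 carry the same library number. They differed from each other by a biological coefficient of variation of 3.89%, against 11.7% to 27.5% for the other 5 pairs within an age. Results are therefore also given with libraries of a shared number summed, which leaves 2 CKO libraries at P14. Adjusted p-values not marked as summed count libraries of a shared number as separate. Nothing in the labels states that the remaining libraries come from separate animals, so the spread behind each p-value is that of the libraries at hand. Xist, the RNA of the inactive X chromosome, had 91348 to 97617 counts in the 3 P14 libraries and 17 to 18 in the 3 P36 libraries. Counts of Y-linked genes ran the other way, from at most 1 at P14 to 7756 to 9473 at P36. Sex and age therefore cannot be told apart within the CKO libraries. Among the Control libraries the Y-linked genes were high in replicate 2 at P36 only. The other 2 Control libraries at P36, replicates 1 and 3, also carry a shared number and differed by a coefficient of variation of 2.02%. An age comparison of Control libraries with high Xist alone therefore has in effect 1 sample at P36.

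Replicate 3 at P36 stood apart from the other 5 CKO libraries. On the leading principal component of the 500 autosomal genes that varied most (53.4% of the variance) it lay at 45.4, and the others lay between -14.2 and 2.69. On the second (31.8%) the P14 libraries lay at 9.41 to 15.4 and replicates 1 and 2 at P36 at -24.1 and -20.8, with replicate 3 at 5.52. A count of 348 genes was at least 2-fold higher in replicate 3 than in every other CKO library, 38 of them at least 10-fold. At the 2-fold limit the count was 11 for replicate 1 at P36 and 4 for replicate 2. The fat cell hormone gene Adipoq had 60.6 CPM in that library and at most 1.46 CPM in the other 5. Muc5b, the gel-forming mucin of airways, had 2149 CPM there and at most 104 CPM elsewhere. Each result below was repeated without that library.

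Tbx4 itself (chromosome 11, 85890063 to 85916097, build mm10) fell in the CKO lung. It stood at 129, 123 and 111 CPM in replicates 1, 2 and 3 at P14 and at 87.4, 82.8 and 67.2 CPM at P36. The ages did not overlap, and the log2 fold change of P36 over P14 was -0.61 ± 0.14 (standard error, as for every log2 fold change here; adjusted p = 0.00989, edgeR's quasi-likelihood test). With the shared-number libraries summed the adjusted p was 0.0404. In Control lung Tbx4 went from 157, 110.3 and 134 CPM to 64.4, 79.8 and 62.7 CPM, so the genotypes overlapped at each age. The counts cover the whole gene in whole lung, and therefore do not check the knockout.

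From P14 to P36, 4230 of the 15372 autosomal genes changed in CKO lung (27.5%) at an adjusted p under 0.05. Of these, 2225 rose (14.5%) and 2005 fell (13%). At least 2-fold changes were found for 577 of the rises and 280 of the falls, and the median log2 fold change of all tested autosomal genes was 0.02. With the shared-number libraries summed, 2072 genes passed (13.4%), 1031 higher (6.65%) and 1041 lower (6.71%), and 2071 of these were among the 4230. Every one of the 4230 kept its direction in that fit. A term for sex, estimated from the Control P36 libraries as the only group that holds both, left 889 higher (5.78%) and 1103 lower (7.18%), 13% in all, with 1635 of the 4230 among them. That term compares 1 library with 2 of a shared number, in effect 1 sample with 1, and every count with a term for sex rests on it. With both changes together 24 rose and 24 fell, 47 of them among the 4230. Without replicate 3 at P36, 1650 genes rose and 1465 fell (20.1%), and 4228 of the 4230 kept their direction. That fit and the summed fit reuse reads of the main fit, so the kept directions are no separate support. Leaving out replicate 3 at P14 gave 1202 and 1202, and leaving out replicate 2 at P14 gave 1452 and 1563.

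The 12 largest rises and 12 largest falls were taken from genes that also passed when summed and did not overlap between the ages. They had at least 1 CPM in a CKO group and were not predicted gene models. Larger changes outside this rule are not ranked here. The largest rises included a detoxifying enzyme, mucosal antibody genes and a clock repressor. Cyp1a1, a cytochrome P450 induced through the aryl hydrocarbon receptor (chromosome 9, 57687928 to 57703824), had 0.281, 0.0478 and 0.261 CPM at P14 and 12.3, 9.46 and 8.95 CPM at P36, a log2 fold change of 5.70 ± 0.46 (adjusted p = 5.54e-05). Jchain, which links antibodies into polymers, rose from 0.338, 0.191 and 0.313 CPM to 3.84, 3.63 and 7.24 CPM (4.12 ± 0.41, adjusted p = 1.09e-04). Pigr, the receptor that carries those polymers across epithelium, stood at 4.22, 3.68 and 3.81 CPM and then at 17.8, 48.1 and 126 CPM (4.04 ± 0.78, adjusted p = 0.00599). The 3 P36 values of Pigr were far apart, with replicate 3 highest, whereas those of Cyp1a1 lay close together. Nr1d1, which encodes the clock repressor REV-ERB alpha (chromosome 11, 98767932 to 98775377), went from 28.4, 29.2 and 30.8 CPM to 333, 411 and 355 CPM (3.63 ± 0.17, adjusted p = 2.23e-06). It had the tightest replicates and the smallest p of the 12 largest rises.

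Most of the other 8 large rises started from levels near 0. Ppp2r2c, a regulatory subunit of protein phosphatase 2A, had 0.281, 0.0956 and 0.104 CPM at P14 and 6.44, 8.83 and 3.22 CPM at P36. Olfm2, a secreted olfactomedin protein, had 0.225, 0.478 and 0.521 CPM and then 6.53, 11 and 3.35 CPM. Both genes had their highest Control level in the 1 Control library with high Y-linked counts, at 7.99 CPM against 1.91 and 1.61 CPM for Ppp2r2c and 10.9 CPM against 3.07 and 3.14 CPM for Olfm2; the part of sex in these 2 rises cannot be told apart from that of age in the CKO libraries. Mdga2, a neuronal adhesion protein, had 3 counts in all P14 libraries and 75 at P36, a ratio of 22.8 per total count with an exact 95% interval of 7.49 to 113. Its P36 libraries were far apart, at 2.27, 1.1 and 0.209 CPM, against at most 0.104 CPM at P14. It did not pass with a term for sex (adjusted p = 0.0765). Rnase1, a secreted ribonuclease, had 3 and 71 counts, a ratio of 21.5 (7.08 to 107). The intervals cover counting error only. Rnase1 too had its highest Control level in the library with high Y-linked counts, at 0.85 CPM against 0.212 and 0.161 CPM at P36. The part of sex in its rise cannot be told apart from that of age either. Pla2g2d, a secreted phospholipase, Lrtm2, a leucine-rich repeat membrane protein, the carboxylesterase Ces1f and the interferon-inducible Ifi27l2a had log2 fold changes of 3.52, 2.97, 2.95 and 2.88.

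**Figure D1:**
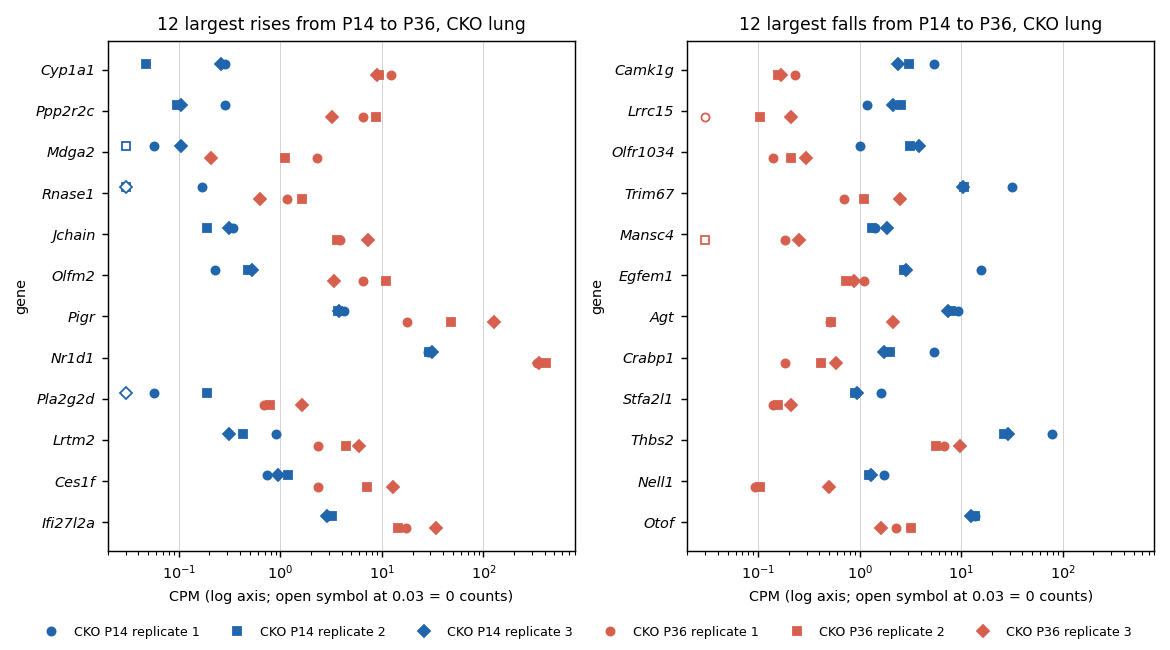
CPM of the 12 largest rises (left) and 12 largest falls (right) in each CKO library, on a log axis. Blue symbols are P14 and red symbols P36, circles, squares and diamonds are replicates 1, 2 and 3, and an open symbol marks 0 counts; the ages do not overlap for any gene, by the rule that chose them.

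The largest falls included genes of fibroblasts and extracellular matrix, several of them near 0 at P36. Lrrc15, a membrane protein of matrix-producing fibroblasts, had 1.18, 2.58 and 2.14 CPM at P14 and 0, 0.105 and 0.209 CPM at P36 (-4.12 ± 0.62, adjusted p = 0.00107). Thbs2, the matricellular protein thrombospondin 2, went from 78.3, 26.3 and 28.9 CPM to 6.81, 5.67 and 9.75 CPM (-2.58 ± 0.43, adjusted p = 0.0026). Agt, the precursor of angiotensin, went from 9.23, 7.98 and 7.4 CPM to 0.509, 0.525 and 2.13 CPM (-2.91 ± 0.49, adjusted p = 0.00226). The largest of the 12 falls was that of Camk1g, a calmodulin-dependent kinase, from 5.35, 3.06 and 2.4 CPM to 0.232, 0.158 and 0.167 CPM (-4.23 ± 0.44, adjusted p = 1.34e-04). Otof, the exocytosis protein otoferlin, fell from 13.7, 13.8 and 12.6 CPM to 2.27, 3.21 and 1.63 CPM, while its Control levels were 1.8, 1.38 and 1.26 CPM and 0.848, 0.425 and 0.564 CPM.

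Replicate 1 at P14 held the highest level of several falling genes, above the 2 libraries of the shared number. Trim67, of the tripartite motif family, had 31.6, 10.7 and 10.3 CPM at P14 and 0.695, 1.1 and 2.51 CPM at P36, and Egfem1 had 15.8, 2.72 and 2.87 CPM and 1.11, 0.736 and 0.879 CPM. Crabp1, which binds retinoic acid in the cell, had 5.46, 2.01 and 1.72 CPM and 0.185, 0.42 and 0.586 CPM. Egfem1 was the only 1 of the 24 genes that no longer passed without replicate 3 at P36 (adjusted p = 0.0708). The olfactory receptor gene Olfr1034, the protease inhibitor gene Stfa2l1, Mansc4 and Nell1, a secreted protein, had log2 fold changes of -3.58, -2.72, -3.29 and -2.52. With a term for sex 7 of the 12 rises and 5 of the 12 falls passed.

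The fall of matrix genes extended to the lists of elastic fibre, collagen and basement membrane genes. Counts in each list stand beside the 14.5% of all tested genes that rose and the 13% that fell. Without overlap of the ages, 21.9% of all tested genes rose and 21.1% fell. Most members named from a list had its smallest p, so a lack of overlap among them is no separate support. Of 21 elastic fibre genes 11 fell and 2 rose, with a median log2 fold change of -0.44. Eln, the elastin precursor (chromosome 5, 134702596 to 134747254), had 5872, 6037 and 5799 CPM at P14 and 1365, 923 and 896 CPM at P36. All P14 values lay far above all P36 values, and the log2 fold change was -2.48 ± 0.24 (adjusted p = 1.16e-04). Ltbp2, which binds fibrillin, went from 501, 538 and 507 CPM to 203, 173 and 132 CPM (-1.61 ± 0.18, adjusted p = 3.17e-04). The microfibril gene Mfap4 went from 1998, 1153 and 1161 CPM to 433, 351 and 426 CPM (-1.83 ± 0.27, adjusted p = 0.00118), highest in replicate 1 at P14. Fbn2, a fibrillin of developing tissue, and Loxl2, a lysyl oxidase that cross-links matrix, also fell (-1.56 and -0.88). The 2 elastic fibre genes that rose were Efemp1 (0.75) and Loxl4 (0.49). With the shared-number libraries summed 9 fell and 1 rose.

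Of 24 genes that encode or process fibrillar collagens 13 fell and none rose (median -0.44, 11 falls when summed). Col3a1, the type III collagen chain, had 2638, 2457 and 2414 CPM at P14 and 1378, 1148 and 1692 CPM at P36 (-0.83 ± 0.13, adjusted p = 0.00112). Adamts2, the protease that trims procollagen, had the most even replicates, with 344, 365 and 364 CPM and then 167, 157 and 177 CPM (-1.10 ± 0.06, adjusted p = 2.30e-06). The type V chains Col5a1 and Col5a2 and the collagen chaperone gene Serpinh1 fell with log2 fold changes of -0.85, -0.91 and -0.58. The type I chain Col1a1 did not pass, at 1866, 1391 and 1344 CPM at P14 and 917, 811 and 1646 CPM at P36. Replicate 3 was the high library at P36.

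Basement membrane genes fell too, with 11 of 20 lower and none higher (median -0.39, 8 falls when summed). Nid2, the linker protein nidogen 2, went from 89.7, 87.1 and 84.1 CPM to 31, 31.7 and 35.8 CPM (-1.40 ± 0.11, adjusted p = 3.79e-05). The laminin chain genes Lama4, Lamb1, Lamc1 and Lama2 had log2 fold changes of -0.71, -0.93, -0.86 and -0.77, with no overlap of ages. The 21 matrix proteases and inhibitors divided, with 5 lower and 4 higher (median -0.19). Among those that fell were the gelatinase Mmp2 (-0.82), its membrane-bound activator Mmp14 (-0.76), Adamts1 (-0.77) and the protease inhibitor Serpine2 (-0.88). The urokinase gene Plau rose from 1.97, 2.44 and 3.34 CPM to 6.48, 4.94 and 4.69 CPM (1.05 ± 0.22, adjusted p = 0.00585). When summed, 1 of these 4 rises and all 5 falls passed.

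**Figure D2:**
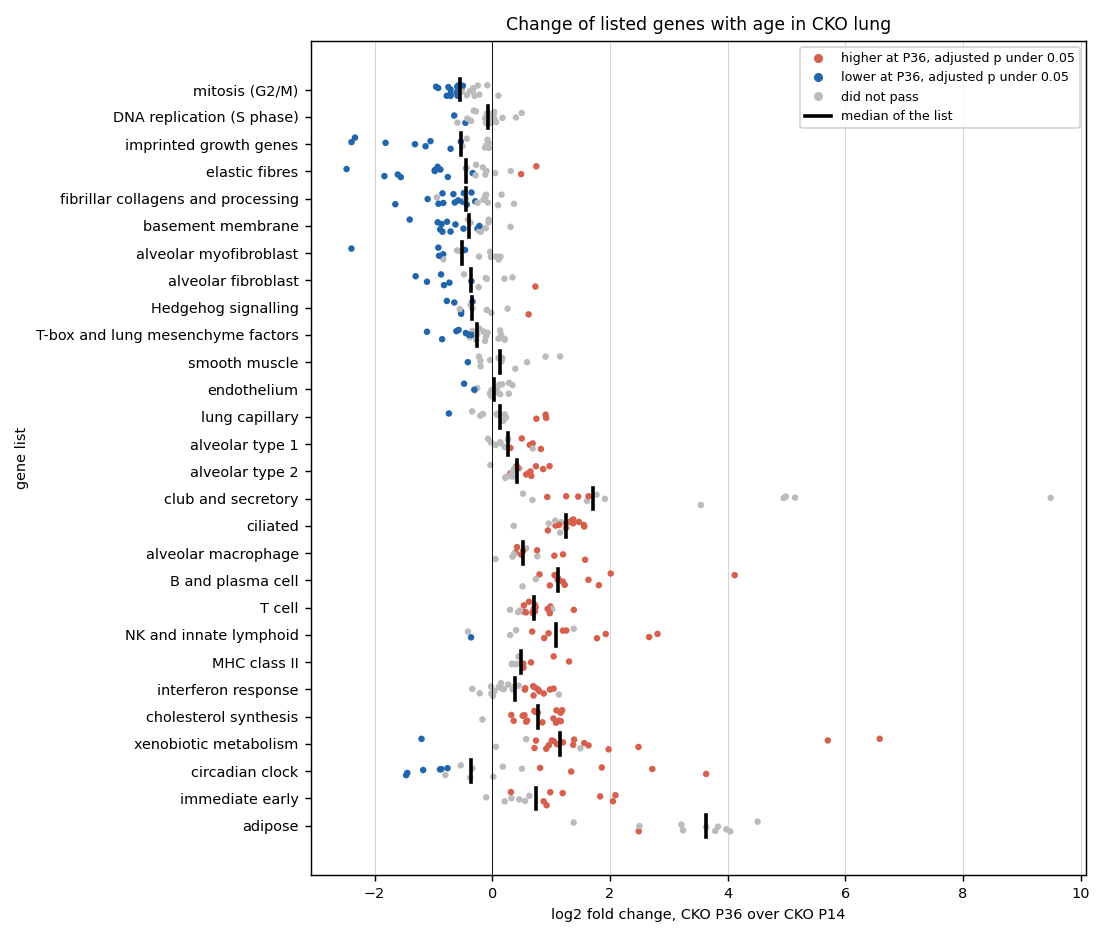
Log2 fold change of P36 over P14 in CKO lung for each tested gene of 28 lists. Red points rose and blue points fell at an adjusted p under 0.05, grey points did not pass, and the black bar is the median of the list; matrix and mitosis lists lie left of 0 and lymphocyte, cholesterol and xenobiotic lists right of it.

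Marker lists of the mesenchyme fell in part. In bulk tissue fewer cells of a type and less RNA per cell cannot be told apart. Of 14 alveolar myofibroblast markers, the cells that lay down septal elastin, 5 fell and none rose (median -0.51), and 2 falls passed when summed. Aspn, the small matrix proteoglycan asporin, had 490.2, 489 and 555 CPM at P14 and 107, 97.8 and 87.5 CPM at P36 (-2.39 ± 0.14, adjusted p = 9.19e-06). Tgfbi, a matrix protein induced by TGF-beta, went from 101, 92.1 and 88.7 CPM to 51.7, 46 and 51.7 CPM (-0.92 ± 0.17, adjusted p = 0.00319). Pdgfra, the growth factor receptor that marks this lineage, stood at 478, 388 and 389 CPM at P14 and at 491, 446 and 372 CPM at P36, and did not pass (0.06 ± 0.16). The contractile gene Acta2 did not pass either, at 365, 253 and 236 CPM and then 234, 243 and 441 CPM.

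Of 13 alveolar fibroblast markers 6 fell and 1 rose (median -0.36, 5 and 1 when summed). With a term for sex 1 fell and 1 rose. Tcf21, a transcription factor of lipid-bearing lung fibroblasts, went from 57.8, 49.6 and 49.6 CPM to 26, 24.4 and 22.4 CPM (-1.11 ± 0.17, adjusted p = 0.0013). Scube2, a secreted protein that aids Hedgehog release, went from 112, 67.8 and 64.8 CPM to 32.8, 35.8 and 30.4 CPM (-1.30 ± 0.20, adjusted p = 0.0014), and the growth factor gene Fgf10 and the transporter gene Slc7a10 fell with log2 fold changes of -0.87 and -0.82. Ces1d, a lipid-cleaving carboxylesterase, rose from 219.7, 214 and 214 CPM to 281, 405 and 389.8 CPM (0.73 ± 0.12, adjusted p = 0.00205). Of 14 adventitial fibroblast markers 1 rose and 3 fell (median -0.03). The eosinophil chemokine gene Ccl11 rose from 16.7, 21.3 and 19.6 CPM to 46.9, 38.8 and 37.6 CPM (1.10 ± 0.21, adjusted p = 0.00375). Its Control levels were 1.28, 2.96 and 2.94 CPM at P14 and 3.64, 3.14 and 3.99 CPM at P36. The 3 falls, Igfbp4, Dpt and Gli1, did not pass when summed (adjusted p = 0.052, 0.0609 and 0.116), nor did Gli1 without replicate 3 at P36 (adjusted p = 0.0595).

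Few smooth muscle and pericyte markers passed. Of 12 smooth muscle markers only Mylk, the myosin light chain kinase, fell (-0.42 ± 0.11, adjusted p = 0.0142). The median of the list was 0.13 with all libraries and -0.26 without replicate 3 at P36, and the list score of that library was 0.84 against -0.30 to 0.27 in the other 5. A list score is the mean log2 CPM of the members relative to their mean over all 12 libraries. Of 12 pericyte markers 2 fell (median -0.32). Rgs5, which dampens G protein signalling in mural cells, went from 106, 109 and 130.01 CPM to 36.7, 8.62 and 22.3 CPM (-2.35 ± 0.40, adjusted p = 0.00294). The other was Postn (-0.43, adjusted p = 0.0499, 0.105 when summed and 0.106 without replicate 3 at P36). Of 8 mesothelial markers Gpm6a rose from 48.6, 53.8 and 56.9 CPM to 90.1, 94.7 and 95.1 CPM and Rspo1 from 5.85, 9.6 and 8.03 CPM to 15.1, 14.8 and 16.1 CPM. Rspo1 did not pass when summed (adjusted p = 0.0737) or without replicate 3 at P36 (adjusted p = 0.0698).

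Genes of mitosis fell together by modest amounts. Of 24 listed, 13 fell and none rose, with a median log2 fold change of -0.55 and a range of -0.95 to 0.10. Summing the shared-number libraries left 10 falls, and 15 fell without replicate 3 at P36. Mki67, the nuclear antigen Ki-67 of cycling cells, had 108, 92.5 and 101 CPM at P14 and 59.7, 63.4 and 76.9 CPM at P36 (-0.59 ± 0.11, adjusted p = 0.00266). Top2a, the topoisomerase that untangles chromosomes, had 41.2, 32.5 and 36.4 CPM and 19.7, 20.7 and 27 CPM (-0.71 ± 0.12, adjusted p = 0.0021). The ages did not overlap for either gene, and replicate 3 was the highest P36 library for both. The mitotic kinesin gene Kif11 went from 15.3, 15.7 and 14.3 CPM to 8.01, 9.25 and 10.5 CPM (-0.71 ± 0.11, adjusted p = 0.00145), and Ccna2 (cyclin A2) and the checkpoint kinase gene Bub1b fell as well (-0.75 and -0.57). With a term for sex 5 mitosis genes passed. Of 25 genes of DNA replication 2 fell, Rrm2 (-0.65) and Cdc45 (-0.46), and the median was -0.07. Cdc45 did not pass when summed (adjusted p = 0.0775).

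The promoters of mitosis genes share short elements. CCAAT boxes bind the factor NF-Y, and the element TTTGAA is part of the cell cycle homology region through which late cell cycle genes are repressed in resting cells. In the RefSeq windows of 250 bases before the start (build GRCm38.p6), searched on both strands, CCAAT was present in 16 of the 19 mitosis promoters that the reference holds (84.2%) and in 4006 of 11371 promoters of tested genes (35.2%). TTTGAA was present in 7 of 19 (36.8%) against 11% of all. A match of letters is a description of the window and not a measured site. The windows of Kif11, Top2a and Mki67 are shown because these had the smallest p among mitosis genes in the reference table. Each is written on the gene's own strand, with every match of either element in capitals, and no match of one element overlaps a match of the other.
Kif11 (chr19:37376132-37376381, plus strand): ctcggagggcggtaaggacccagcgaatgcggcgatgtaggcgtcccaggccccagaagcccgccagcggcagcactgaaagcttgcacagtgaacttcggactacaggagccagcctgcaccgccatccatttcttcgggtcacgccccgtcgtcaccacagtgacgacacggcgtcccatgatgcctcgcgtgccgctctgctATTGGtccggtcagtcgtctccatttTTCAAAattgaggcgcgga
Top2a (chr11:99024190-99024439, minus strand): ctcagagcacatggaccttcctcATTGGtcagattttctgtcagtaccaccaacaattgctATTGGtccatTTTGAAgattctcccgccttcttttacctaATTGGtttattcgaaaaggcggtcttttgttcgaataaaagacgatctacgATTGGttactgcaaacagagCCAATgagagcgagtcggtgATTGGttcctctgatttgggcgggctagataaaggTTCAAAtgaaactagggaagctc
Mki67 (chr7:135716380-135716629, minus strand): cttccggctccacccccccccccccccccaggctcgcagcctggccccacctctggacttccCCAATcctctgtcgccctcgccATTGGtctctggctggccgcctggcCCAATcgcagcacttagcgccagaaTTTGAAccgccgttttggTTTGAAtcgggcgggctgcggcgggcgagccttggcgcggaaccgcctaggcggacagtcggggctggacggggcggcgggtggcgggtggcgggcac
The window of Kif11 held 1 match of CCAAT and 1 of TTTGAA, that of Top2a 6 and 2, and that of Mki67 3 and 2.

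Growth genes of the fetus and early life fell as well. Imprinted growth genes are expressed from a single parental allele and decline in many organs after birth. Of 15 tested, 8 fell and none rose (median -0.53), and all 15 log2 fold changes were negative; 7 fell when summed and 10 without replicate 3 at P36. Peg3, a zinc finger gene (chromosome 7, 6705960 to 6730419), went from 151, 159 and 159.8 CPM to 45.3, 40.9 and 47.3 CPM (-1.81 ± 0.07, adjusted p = 7.54e-08). H19, a long noncoding RNA, went from 25.7, 26.7 and 27.4 CPM to 5.79, 4.05 and 5.94 CPM (-2.33 ± 0.20, adjusted p = 5.83e-05). The cell cycle inhibitor gene Cdkn1c went from 61, 73.4 and 82.3 CPM to 31.8, 35.3 and 37.7 CPM (-1.05 ± 0.10, adjusted p = 9.77e-05). These genes had close replicates and a wide gap between the ages. The receptor adaptor gene Grb10 and the zinc finger gene Zim1 fell as well (-1.13 and -2.39). Igf2, the fetal growth factor, did not pass, at 22.8, 23.2 and 26 CPM and then 15.5, 15 and 22.8 CPM.

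Of 10 fetal growth regulators 3 fell and 1 rose. Igf1, the postnatal growth factor, went from 289.7, 256 and 271 CPM to 127, 117 and 161 CPM (-1.01 ± 0.13, adjusted p = 4.28e-04). Its Control levels were lower at both ages, at 121, 143 and 156 CPM and 67.1, 80.9 and 69.2 CPM. Ezh2, the histone methyltransferase of Polycomb complex 2, fell from 41.2, 38.1 and 43.1 CPM to 23.5, 24 and 24.7 CPM (-0.76 ± 0.07, adjusted p = 1.09e-04). Among RNA-binding proteins of the Igf2bp family, Igf2bp3 fell (-1.94 ± 0.21, adjusted p = 1.70e-04) and Igf2bp1 rose (1.02 ± 0.18, adjusted p = 0.00267).

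Alveolar epithelial markers rose. Of 14 type 1 cell markers 5 rose and none fell (median 0.27, 3 when summed). Hopx, a homeodomain cofactor, went from 132, 137 and 133 CPM to 228, 206 and 213 CPM (0.69 ± 0.09, adjusted p = 3.64e-04), and the water channel gene Aqp5 from 99.9, 74.3 and 71.2 CPM to 116, 132 and 134 CPM (0.64 ± 0.14, adjusted p = 0.0066). Sec14l3, Gprc5a and Pdpn had log2 fold changes of 0.83, 0.31 and 0.50, and 3 of the 5 rises passed without replicate 3 at P36 (adjusted p = 0.0868 for Gprc5a and 0.101 for Pdpn). Of 18 type 2 cell markers 10 rose and none fell (median 0.42, 6 when summed). Sftpb, a surfactant protein, had 1847, 2296 and 2088 CPM at P14 and 3416, 3342 and 3012 CPM at P36 (0.65 ± 0.12, adjusted p = 0.00369). Scd1, a desaturase of fatty acids, had 1903, 2079 and 2197 CPM and 3290.4, 3244 and 4719 CPM (0.86 ± 0.17, adjusted p = 0.00402). Etv5, a transcription factor that maintains type 2 cells, went from 149.7, 124 and 124 CPM to 246, 226 and 192 CPM (0.74 ± 0.13, adjusted p = 0.00294), with no overlap of ages for any of these genes. Muc1 and Lyz2 (lysozyme, also made by macrophages) rose with log2 fold changes of 0.58 and 0.63.

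Airway markers rose, and much of that rise lay in a single library. Of 17 ciliated cell markers 12 rose and none fell (median 1.25), but 3 passed without replicate 3 at P36 (median 0.80) and 2 when the shared-number libraries were summed. With a term for sex 1 passed. Dynlrb2, a dynein light chain of cilia, had 7.37, 6.64 and 6.31 CPM at P14 and 10.05, 21.1 and 21.6 CPM at P36 (1.38 ± 0.26, adjusted p = 0.00378, and 0.0128 without replicate 3). Dnah5, a dynein heavy chain, had 68.3, 67.5 and 69 CPM and 84.4, 176 and 344 CPM (1.56 ± 0.51, adjusted p = 0.0479, and 0.17 without replicate 3). In both genes replicate 1 at P36 lay closest to the P14 libraries and replicate 3 was highest. The ciliated list score was 1.03 in replicate 3, 0.49 in replicate 2 and -0.54 in replicate 1, against -0.75 to -0.69 at P14.

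Of 14 club and secretory markers 4 rose and none fell, with a median of 1.70 that dropped to 0.07 without replicate 3. Scgb1a1, the main secretory protein of club cells, had 8091, 9925 and 10107 CPM at P14 and 15722, 31244 and 30411 CPM at P36 (1.46 ± 0.25, adjusted p = 0.00196). It passed without replicate 3 (adjusted p = 0.00611), and so did Cyp2f2 and the carbonyl reductase gene Cbr2 (adjusted p = 0.0215 and 0.0205). Gabrp did not (adjusted p = 0.139). Muc5b had 53.5, 70.1 and 70.5 CPM at P14 and 10.4, 104 and 2149 CPM at P36, and did not pass (adjusted p = 0.219). The club list score of replicate 3 was 2.88, above -1.90 to -0.40 in the other CKO libraries.

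The fat cell list showed the same library. Of 11 adipose markers 1 rose, Cidec (2.49 ± 0.77, adjusted p = 0.0378, and 0.115 without replicate 3). The median of the list was 3.64 with all libraries and -0.56 without replicate 3. Adipoq had 0.648, 0.736 and 60.6 CPM at P36, Cfd (the complement factor adipsin) 1.34, 4.94 and 149 CPM, Car3 (a carbonic anhydrase of fat and muscle) 4.68, 9.46 and 533 CPM and Plin4 (a lipid droplet coat protein) 8.38, 10.4 and 89.5 CPM. In each of these genes replicate 3 stood far above the other 2. The adipose score was 4.10 there and -1.30 to -0.40 in the other 5 CKO libraries. The cardiac muscle score of that library was 1.60. Control replicates 2 and 3 at P14 had like cardiac scores, at 1.95 and 1.45. The part of fat, large airway or heart tissue in the other results was not tested.

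**Figure D3:**
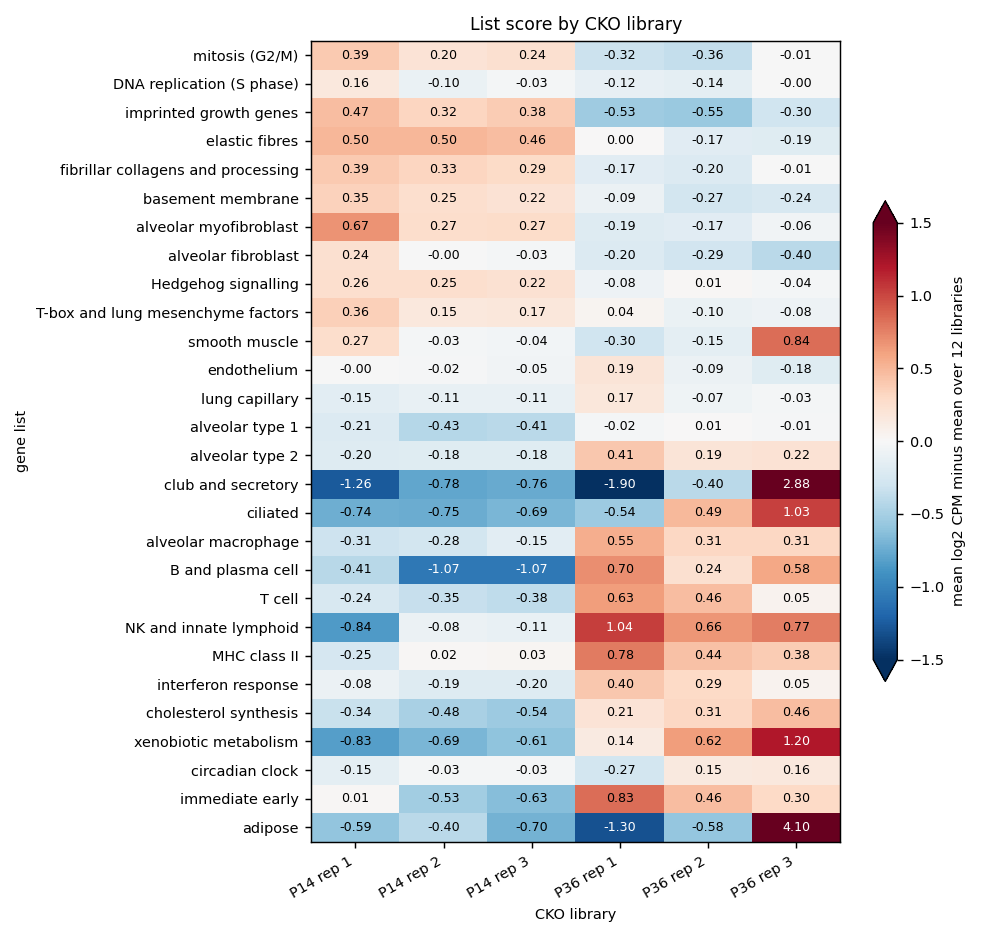
List scores in the 6 CKO libraries, as the mean log2 CPM of the members minus their mean over all 12 libraries. Red is above and blue below that mean; replicate 3 at P36 has 4.10 for adipose and 2.88 for club and secretory markers, while its elastic fibre score of -0.19 is close to the -0.17 of replicate 2.

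Few markers of other tissues passed. None of the 10 cardiac, 5 skeletal muscle, 5 nerve and 2 tested erythroid markers passed. Rag1, the recombinase of developing lymphocytes and the single thymus gene tested of 6, went from 3.71, 1.82 and 2.14 CPM to 0.834, 0.525 and 0.711 CPM (-1.87 ± 0.38, adjusted p = 0.00512). Of 3 cartilage genes tested, Hapln1 and Col11a2 fell (-1.34 and -0.77), the latter not without replicate 3 at P36 (adjusted p = 0.0673). Krt15, of 3 basal cell genes tested, passed with 0.602, 0.368 and 7.53 CPM at P36, replicate 3 again the highest (adjusted p = 0.332 without it). Grp, of 5 neuroendocrine genes tested, fell (-0.96, adjusted p = 0.00588).

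Few endothelial markers passed. Of 18 general markers 2 fell and none rose (median 0.02), the vascular transcription factor gene Sox17 (-0.31, adjusted p = 0.038) and the surface sialomucin gene Emcn (-0.48, adjusted p = 0.0395). Neither passed when summed (adjusted p = 0.118 and 0.084) or without replicate 3 at P36 (adjusted p = 0.134 and 0.0698). Pecam1 did not pass, with 563, 597 and 612 CPM at P14 and 708, 564 and 558 CPM at P36. Of 12 lung capillary markers 3 rose and 1 fell (2 and 1 when summed). Cyp4b1, a P450 of lung endothelium and epithelium, went from 98.1, 134 and 129 CPM to 208, 252 and 223 CPM (0.92 ± 0.11, adjusted p = 3.34e-04), and Plvap, a protein of fenestral diaphragms, from 106, 116 and 103 CPM to 236, 194 and 179 CPM (0.91 ± 0.21, adjusted p = 0.0115). Of 11 tested markers of larger vessels, the adhesion molecule gene Selp rose from 1.01, 0.956 and 0.626 CPM to 3.57, 3.63 and 6.74 CPM (2.42 ± 0.32, adjusted p = 4.83e-04) and Vwf, the clotting factor stored with it, from 286, 346 and 314 CPM to 551, 532 and 515 CPM (0.76 ± 0.11, adjusted p = 8.25e-04). The vein factor gene Nr2f2 fell (-0.32). None of 5 lymphatic markers passed.

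Among 18 genes of heritable pulmonary hypertension, 5 fell and 2 rose (median 0.07). Besides Tbx4 and Sox17 the falls were Kcnk3, Klf2 and Tet2. Kcnk3, a potassium channel of smooth muscle, went from 68.9, 72.1 and 74 CPM to 48.4, 41.2 and 50.6 CPM (-0.62 ± 0.14, adjusted p = 0.0076). Klf2, a flow-responsive endothelial factor, went from 231, 194 and 180.5 CPM to 164, 102 and 123 CPM (-0.64 ± 0.17, adjusted p = 0.0195, 0.0595 when summed and 0.0634 without replicate 3 at P36). Tbx4 and Kcnk3 were the 2 falls that passed when summed, and neither rise (Ggcx and Atp13a3) did. Bmpr2, the receptor most often altered in the human disease, stood at 2867, 2669 and 2917 CPM at P14 and at 3239, 2765 and 2732 CPM at P36, so the ages overlapped (0.05 ± 0.13). Of 16 vasoactive genes 3 fell and 1 rose (2 and 1 when summed). Ednra, the endothelin receptor of smooth muscle, fell from 165, 198 and 206 CPM to 128, 91 and 84 CPM (-0.91 ± 0.16, adjusted p = 0.0031), and the prostacyclin receptor gene Ptgir rose from 4.45, 3.82 and 3.96 CPM to 7.64, 6.94 and 5.65 CPM (0.73 ± 0.16, adjusted p = 0.00657). The cGMP-dependent kinase gene Prkg1 and the angiotensin receptor gene Agtr1a fell by smaller amounts (-0.45 and -0.42).

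Lymphocyte genes rose broadly. Of 14 tested B and plasma cell genes 12 rose and none fell (median 1.11), 10 of them also when summed and 6 with a term for sex. Cr2, the complement receptor of mature B cells, went from 4.28, 2.48 and 2.82 CPM to 14.1, 11.4 and 13 CPM (2.01 ± 0.19, adjusted p = 9.02e-05). Cd22, an inhibitory receptor, went from 20.1, 15.6 and 14.5 CPM to 43.9, 35.4 and 35.6 CPM (1.20 ± 0.12, adjusted p = 1.27e-04). The IgE receptor gene Fcer2a and the lineage factor gene Pax5 rose with log2 fold changes of 1.81 and 1.23. For these B cell genes replicate 1 was the highest P14 library, and the ages did not overlap.

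Of 18 T cell genes 14 rose and none fell (median 0.70), with 7 passing when summed and 1 with a term for sex. Cd28, the costimulatory receptor, went from 7.71, 6.83 and 7.04 CPM to 13, 11.8 and 10.5 CPM (0.71 ± 0.13, adjusted p = 0.00295). Ccr7, the homing receptor of naive T cells, went from 5.96, 4.2 and 4.01 CPM to 11.3, 8.62 and 8.12 CPM (0.99 ± 0.19, adjusted p = 0.00342). Cd6 and Themis rose by 0.94 and 0.73 on the log2 scale. Natural killer and innate lymphoid genes rose in 9 of 14 (median 1.08, 7 when summed, 2 with a term for sex). Ncr1, the activating receptor of natural killer cells, went from 1.52, 0.669 and 0.678 CPM to 6.48, 5.62 and 5.94 CPM (2.67 ± 0.28, adjusted p = 1.44e-04), and Prf1, the pore protein perforin, from 0.394, 1.19 and 1.2 CPM to 8.66, 5.15 and 6.02 CPM (2.81 ± 0.39, adjusted p = 7.75e-04). Klrd1, Klre1 and the factor gene Eomes also rose (1.26, 1.78 and 1.93). The 1 member that fell was Rora (-0.36), a nuclear receptor gene that many lung cells also express.

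Myeloid genes rose in part. Of 13 alveolar macrophage markers 8 rose and none fell (median 0.53, 5 when summed). Chil3, a chitinase-like secreted protein, went from 70.7, 56 and 61.3 CPM to 226, 167 and 168 CPM (1.58 ± 0.22, adjusted p = 8.84e-04). Pparg, the nuclear receptor that these cells need, went from 7.93, 8.12 and 9.18 CPM to 13.6, 17.1 and 21.7 CPM (1.06 ± 0.17, adjusted p = 0.00144); fat cells also express it, and it passed without replicate 3 (adjusted p = 0.00318). Krt79, Plet1 and the integrin gene Itgax rose with log2 fold changes of 1.20, 0.76 and 0.53. Among 14 interstitial macrophage markers 1 rose, the growth factor receptor gene Csf1r (0.32, adjusted p = 0.0129, and 0.0633 when summed). Of 9 monocyte markers 4 rose (2 when summed, 1 with a term for sex). Ccr2, the chemokine receptor of inflammatory monocytes, went from 56.9, 66.2 and 72 CPM to 94.6, 84.4 and 88.7 CPM (0.46 ± 0.09, adjusted p = 0.00466). Adgre4, Treml4 and Plac8 rose by 1.14, 0.99 and 0.51 on the log2 scale. Of 12 neutrophil genes Mmp9, Csf3r and Lcn2 rose, and none of the 3 passed when summed (adjusted p = 0.0701, 0.0837 and 0.135). Lcn2 did not pass without replicate 3 at P36 either (adjusted p = 0.121).

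Dendritic cell genes were divided, with 4 of 14 higher and 1 lower (3 and 1 when summed). The chemokine genes Ccl22 and Ccl17 rose, Ccl22 from 5.06, 6.74 and 7.04 CPM to 24.7, 20.1 and 13.4 CPM (1.62 ± 0.23, adjusted p = 7.48e-04). Siglech and Ccr9 of plasmacytoid cells rose as well (1.18 and 0.83), and the actin-bundling gene Fscn1 fell (-0.56). Of 8 mast cell and basophil genes Hdc, which makes histamine, rose from 36.3, 37.3 and 37 CPM to 65.6, 58.9 and 61.7 CPM (0.75 ± 0.07, adjusted p = 1.05e-04). Antigen presentation rose, with 5 of 10 class II genes (median 0.49, 2 when summed) and 7 of 11 class I genes (median 0.47, 5 when summed) and none lower. With a term for sex 2 class II genes and 1 class I gene passed. H2-Ob, a regulator of class II peptide loading in B cells, went from 12.3, 11.1 and 11.7 CPM to 26.6, 22.9 and 23 CPM (1.04 ± 0.09, adjusted p = 6.09e-05). The class I loading gene Tapbp went from 107, 119 and 115 CPM to 169.97, 152 and 159.6 CPM (0.50 ± 0.07, adjusted p = 7.80e-04).

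Interferon response genes rose in 11 of 26 cases, and none fell (median 0.38). With the shared-number libraries summed 6 passed, and with a term for sex 2 did. Ifit3 went from 13.1, 15.5 and 15.3 CPM to 25.5, 28.9 and 22.2 CPM (0.80 ± 0.11, adjusted p = 8.05e-04), and Ifit1, a related sensor of foreign RNA, from 11.1, 10.8 and 11.2 CPM to 20.2, 18.8 and 15 CPM (0.70 ± 0.11, adjusted p = 0.00138). The deconjugating protease gene Usp18 and the RNA-sensing enzymes Oas2 and Oas3 had log2 fold changes of 0.77, 0.88 and 0.98. The interferon-stimulated response motif (GAAA, any 2 bases, GAAA, on either strand) was present in 10 of 19 listed promoters in the reference (52.6%) and in 2.74% of all promoters of tested genes.

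In the BMP, TGF-beta and WNT pathways the share of genes that passed was near that of all tested genes (27.5%), so the counts are no result about these pathways. The same holds for the VEGF and angiopoietin, retinoid, vasoactive, adventitial fibroblast, larger vessel, mesothelial and neutrophil lists. In the BMP pathway 4 of 25 fell and 2 rose, and neither rise passed when summed. With a term for sex none of these genes passed. The ligand gene Bmp2 went from 15.2, 19.1 and 23.6 CPM to 9.86, 9.72 and 8.2 CPM (-1.06 ± 0.16, adjusted p = 0.00104), and the antagonist gene Nog from 2.19, 1.53 and 0.886 CPM to 0.463, 0.263 and 0.293 CPM (-2.15 ± 0.51, adjusted p = 0.0101). The receptor gene Acvr1 and the modulator gene Bmper fell (-0.29 and -0.71) and the ligand gene Bmp6 rose (0.54). Bmper did not pass without replicate 3 at P36 (adjusted p = 0.0585). In the TGF-beta pathway 3 of 16 fell and none rose. The target gene Ctgf, a matricellular protein of the CCN family, went from 216, 320.1 and 324 CPM to 123, 135 and 103 CPM (-1.25 ± 0.16, adjusted p = 6.26e-04), lowest at P14 in replicate 1. Skil, a feedback repressor, and the receptor gene Tgfbr1 fell by smaller amounts (-0.58 and -0.25). Tgfbr1 passed neither when summed (adjusted p = 0.144) nor without replicate 3 at P36 (adjusted p = 0.116).

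In the WNT pathway 5 of 27 rose and 1 fell (2 and 1 when summed, without Wnt7a and Lef1). Rnf43, a ligase that removes WNT receptors, went from 15.9, 15.3 and 16.1 CPM to 22.6, 24.4 and 23.8 CPM (0.58 ± 0.07, adjusted p = 4.40e-04). The ligand genes Wnt3a and Wnt7a and the nuclear effector gene Lef1 rose (0.74, 0.85 and 0.57), and the secreted Dkk3 fell (-0.68). Hedgehog genes fell in 5 of 12 cases, and 1 rose (median -0.35, 4 falls when summed). Boc, a coreceptor, went from 98.9, 112 and 104 CPM to 66.3, 56.8 and 61.3 CPM (-0.77 ± 0.09, adjusted p = 3.29e-04). Gli3, the repressor-forming effector, went from 38.8, 38 and 39.2 CPM to 27.7, 27.1 and 25.6 CPM (-0.53 ± 0.07, adjusted p = 5.16e-04), and Smo and Gli2 fell by -0.34 and -0.53 on the log2 scale. Gli1, the target and effector, passed at an adjusted p of 0.0464 and turned positive with a term for sex (0.23, adjusted p = 0.609). The rise was that of Cdon, another coreceptor (0.62, adjusted p = 0.1 when summed and 0.0735 without replicate 3 at P36).

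Of 17 FGF pathway genes 5 fell and 2 rose (3 and 1 when summed). Those with the smallest p were Etv5 and Fgf10, given above, and the feedback inhibitor gene Spry4 (-0.78), the receptor gene Fgfr1 (-0.31) and the phosphatase gene Dusp6 (-0.43). Spry4 and Dusp6 did not pass without replicate 3 at P36 (adjusted p = 0.0565 and 0.0713). Of 13 VEGF and angiopoietin genes Vegfc and Angpt1 fell (-0.50 and -0.40) and Vegfb and Vegfa rose (0.67 and 0.28). Only the fall of Vegfc passed when summed (adjusted p = 0.0449), and Vegfb did not pass without replicate 3 at P36 (adjusted p = 0.103). Of 14 retinoid genes 3 rose and 1 fell, Crabp1, with 1 rise left when summed and 1 without replicate 3 at P36. The receptor gene Rara rose from 64.1, 66.2 and 57.3 CPM to 83.4, 77.4 and 76 CPM (0.34 ± 0.08, adjusted p = 0.00935). Of 21 T-box and mesenchymal transcription factors 7 fell and none rose (median -0.25, 4 falls when summed and 4 without replicate 3 at P36). Zfpm2, a GATA cofactor, went from 46.5, 37 and 38.8 CPM to 20.8, 22.5 and 24.4 CPM (-0.85 ± 0.09, adjusted p = 1.98e-04). Prrx1, a homeobox gene of limb and lung mesenchyme, and Hoxb3 fell too (-0.57 and -0.40; adjusted p for Hoxb3 0.0755 without replicate 3 at P36).

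Sterol synthesis genes rose nearly throughout the list. Of 19 tested genes of cholesterol synthesis and its control, 18 rose and none fell, with a median log2 fold change of 0.77, and the P14 and P36 libraries did not overlap for those 18 (21.9% of all tested genes rose without overlap). When summed 16 passed, and 13 did with a term for sex. Insig1, the sterol sensor that holds the pathway's transcription factor in check, went from 42.1, 36.2 and 37.2 CPM to 80.4, 86.8 and 90.6 CPM (1.16 ± 0.08, adjusted p = 1.14e-05). Fdft1, the first committed enzyme of sterol synthesis, went from 12.8, 13.5 and 13.7 CPM to 26.4, 31.5 and 31.8 CPM (1.16 ± 0.10, adjusted p = 5.64e-05). Lss, which closes the sterol rings, went from 14.2, 16.5 and 15.9 CPM to 28.5, 33.1 and 37.2 CPM (1.08 ± 0.10, adjusted p = 9.02e-05). All 3 replicates at P36 took part, replicate 3 with the highest value in each of these genes. The sterol oxidase gene Msmo1 rose by 1.04 on the log2 scale. Stard4, a sterol carrier, was the 1 gene that did not pass (-0.17 ± 0.14).

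Xenobiotic metabolism rose in 16 of 20 genes and fell in 1 (median 1.15; 13 and 1 when summed). Ephx1, an epoxide hydrolase, went from 77.4, 85.2 and 84.7 CPM to 144, 168 and 198 CPM (1.04 ± 0.10, adjusted p = 1.09e-04). Aox1, aldehyde oxidase, went from 27.3, 27.6 and 25.6 CPM to 57.5, 79 and 74.6 CPM (1.39 ± 0.14, adjusted p = 1.17e-04). The glutathione transferase genes Gstm1 and Gstm2 rose with log2 fold changes of 1.20 and 0.72; their sequences are alike, and reads may have been divided between them. Several members are also made by club cells, whose markers were highest in replicate 3, and 13 passed without that library (median 0.93). The fall was that of Fmo2 (-1.20), a flavin monooxygenase of lung.

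Clock genes moved in opposing directions. Of 18, 5 rose and 6 fell (5 and 3 when summed). Besides Nr1d1 the rises included Bhlhe40, from 30.4, 35.2 and 34.1 CPM to 61.5, 91.9 and 99.5 CPM (1.34 ± 0.15, adjusted p = 2.97e-04), and Bhlhe41 (1.86), both repressors. Cry1, a repressor of the negative limb, fell from 30.2, 36.9 and 35.1 CPM to 11, 11.6 and 14.9 CPM (-1.44 ± 0.13, adjusted p = 6.48e-05), and Nfil3, which opposes the clock output factors, fell from 8.5, 11.3 and 10.9 CPM to 4.77, 3.31 and 3.05 CPM (-1.46 ± 0.22, adjusted p = 0.00113). Dbp, an output factor chosen here after its values were seen, had 17.3, 12.9 and 14 CPM at P14 and 41.7, 123 and 126 CPM at P36. Replicate 1 at P36 was thus low for Dbp, and Arntl (BMAL1) was highest there among the P36 libraries, at 23.8 CPM against 10.04 and 8.12 CPM. The labels do not state the time of day of tissue collection.

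Immediate early genes, which respond within minutes to growth factors and handling, rose in 8 of 14 cases, and none fell (median 0.75, 6 when summed, 2 with a term for sex). Junb went from 22.1, 22.5 and 19.7 CPM to 95.2, 95 and 76.2 CPM (2.05 ± 0.13, adjusted p = 1.13e-05), Zfp36, a decay factor of inflammatory mRNAs, from 79, 84.5 and 81.7 CPM to 202, 203 and 157 CPM (1.20 ± 0.10, adjusted p = 5.60e-05), and Fos from 19.9, 20.2 and 20.3 CPM to 97.1, 61.5 and 56.8 CPM (1.83 ± 0.29, adjusted p = 0.00208). The ages were well separated in each, and Ier3 and Egr2 rose by 0.92 and 0.98 on the log2 scale. Glucocorticoid targets fell in 4 of 9 cases (median -0.76, 3 when summed, 0 with a term for sex). Errfi1, an inhibitor of EGF receptors, had 222, 375 and 397 CPM at P14 and 189.7, 148 and 142 CPM at P36 (-1.05 ± 0.20, adjusted p = 0.00447), and Per1 had 277, 355 and 348 CPM and 158, 212 and 208 CPM (-0.76 ± 0.16, adjusted p = 0.00593). For both genes replicate 1 at P14 lay between the other 2 P14 libraries and the P36 libraries. The kinase gene Sgk1 and the factor gene Klf9 had log2 fold changes of -0.59 and -0.56, and Klf9 did not pass without replicate 3 at P36 (adjusted p = 0.0672).

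Control lung of the same ages, which shares no library with the CKO comparison, changed largely in the same way. In Control 6424 genes passed (41.8%), 3214 higher and 3210 lower at P36. Of all genes 2906 passed in both genotypes, 2882 of them in the same direction and 24 in opposite directions. The shared calls were 68.1% of the CKO calls and 44.9% of the Control calls. With the Control libraries of high Xist alone, whose 2 libraries at P36 share a number, 2849 calls were shared in direction, 67.4% of the CKO calls. Of the 12 largest CKO rises 11 also rose in Control, all but Rnase1, and of the 12 largest falls 11 also fell, all but Stfa2l1. With high-Xist Control libraries alone the numbers were 11 and 10.

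**Figure D4:**
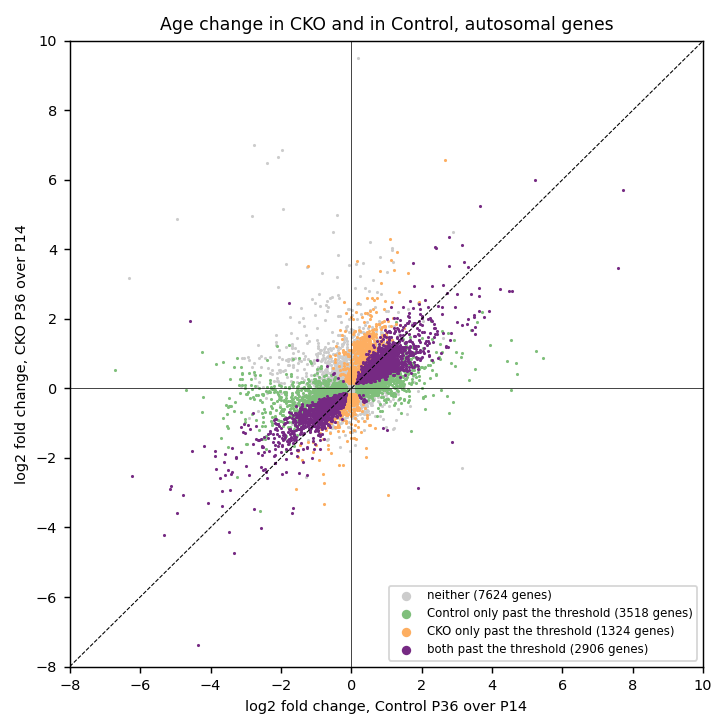
Log2 fold change of P36 over P14 in CKO (vertical) against Control (horizontal) for the 15372 autosomal genes, with the line of equal change dashed. Purple marks the 2906 genes past the threshold in both, most in the lower left and upper right; grey, green and orange mark genes past it in neither, in Control only or in CKO only, which by itself does not show a difference.

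Several lists had smaller medians in CKO than in Control. Mitosis genes had a median of -0.55 in CKO and -1.0 in Control, where 23 of 24 fell. Alveolar macrophage markers had medians of 0.53 and 1.45, class II genes 0.49 and 1.48, natural killer genes 1.08 and 2.38, type 2 cell markers 0.42 and 1.02 and cholesterol genes 0.77 and 1.19. The B cell list (1.11 and 1.26), immediate early genes (0.75 and 0.76) and xenobiotic genes (1.15 and 1.09) had like medians. Glucocorticoid targets had -0.76 and -0.09. Smooth muscle (0.13 and -0.92), club (1.70 and -0.07) and ciliated (1.25 and 0.38) markers had more positive medians in CKO. Without replicate 3 at P36 these CKO medians were -0.26, 0.07 and 0.80. In the order above, mitosis to cholesterol, the CKO medians with a term for sex were -0.65, 0.71, 0.75, 0.79, 0.73 and 0.93. Sex follows age in CKO and not in Control, so its part in these medians cannot be told apart. The difference of the age effects was itself tested gene by gene. It passed for 239 genes (1.55%), 73 with a more positive and 166 with a more negative change in CKO. With library totals in place of TMM scaling the split was 80 and 83. The count rested on single libraries. It was 0 or 1 in either direction without CKO P14 replicate 2 or 3, CKO P36 replicate 2, or Control P36 replicate 1 or 3, at most 19 without Control P14 replicate 2 or 3, and 44 and 59 without CKO P36 replicate 3. It was 153 and 307 without CKO P14 replicate 1, 121 and 263 without Control P14 replicate 1, and 303 and 383 without Control P36 replicate 2. No gene passed once the shared-number libraries were summed (smallest adjusted p 0.256, with 1930 genes at an unadjusted p under 0.05) or with a term for sex (0.158, with 2146 genes).

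Ctgf, Ccr2 and Chil3 show how the level at P14 entered that comparison. Ctgf had 179.6, 174 and 194 CPM in Control at P14 and 243, 183 and 242 CPM at P36, and in CKO it was above Control at P14 in each library and below it at P36. Ccr2 had 20.6, 21.3 and 20.9 CPM and then 70.3, 61 and 73.9 CPM in Control, so the CKO libraries were higher at both ages. Chil3 had 34.5, 25.4 and 31.5 CPM and then 406, 231 and 402 CPM, with CKO higher at P14 and lower at P36. Aspn had 298, 194 and 244 CPM and then 43.9, 41.9 and 50.2 CPM in Control, where CKO was higher at both ages and the log2 fold changes were alike (-2.39 in CKO and -2.44 in Control). Differences between the genotypes at one age were not tested here.

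**Figure D5:**
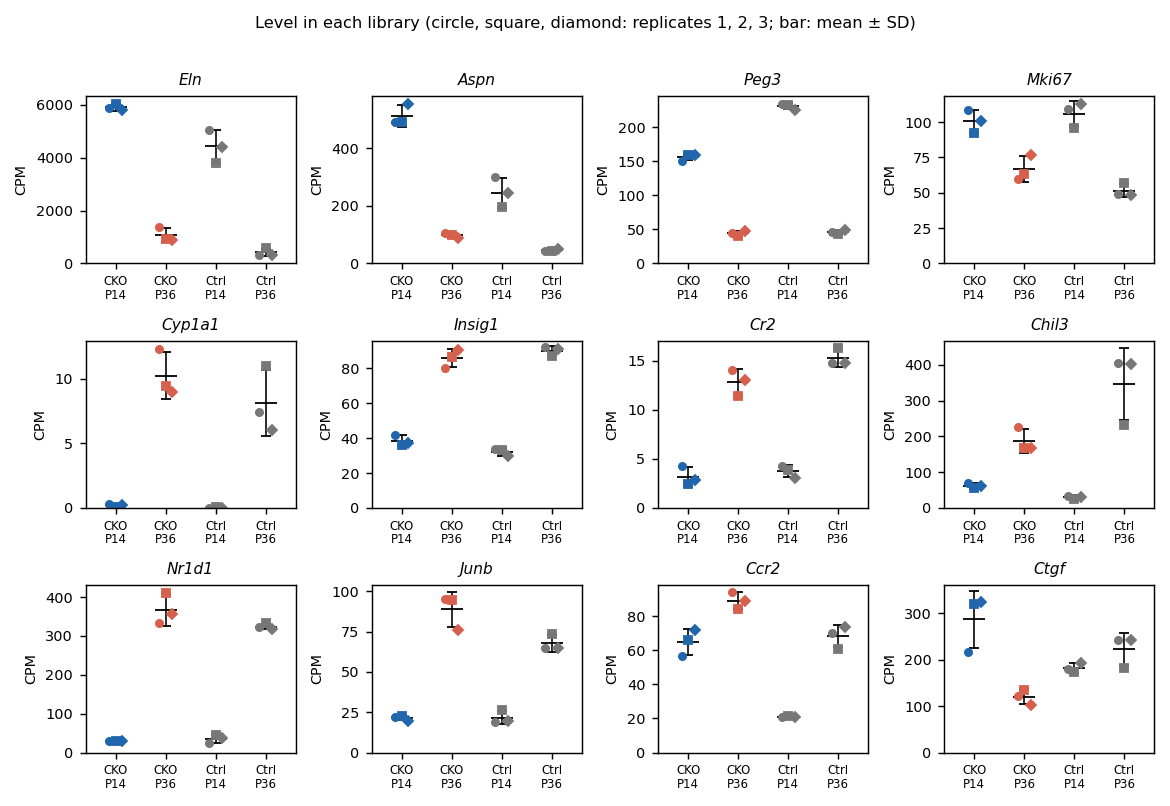
CPM in each library of 12 genes named in the text, by genotype and age; circles, squares and diamonds are replicates 1, 2 and 3, and bars are the mean with the SD of 3 libraries. Eln, Aspn, Peg3 and Mki67 are lower at P36 in both genotypes, 7 of the others are higher at P36 in both, and Ctgf is lower at P36 in CKO while its Control ages overlap.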

How the data were processed

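RNA from whole mouse lung had been extracted with the miRNeasy mini kit, and libraries made from total RNA with KAPA RNA HyperPrep, per the labels' protocols. FastQC, STAR, featureCounts, edgeR and the build mm10 are named in the submitters' processing notes, without versions or a strand setting. The deposited table gives the authors' whole-number read counts per gene for 24421 genes; a deposited table of log2 values was not used. Genes that overlap or resemble each other (class I genes, Ces1d and Ces1f, Gstm1 and Gstm2) may share reads.

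Counts were tested in edgeR 4.0.16 (R 4.3.3) by its quasi-likelihood F-test (robust), in a fit of all 12 libraries (filterByExpr, minimum count 10 and total 15; TMM). Benjamini-Hochberg adjustment ran over 15923 genes, with a threshold of 0.05. CPM were scaled by TMM. The members and the 58 gene lists were chosen with earlier results of these data known, and described by counts and medians without a set test. Named genes were the 12 largest rises and 12 largest falls past the threshold, also when shared-number libraries were summed, with at least 1 CPM in a CKO group, no overlap and no predicted models, and up to 5 members with the smallest p in each list (2 where none passed). A few genes that this rule names are not reported here. Other genes named were chosen after their values were seen. Alternatives included DESeq2 1.42.0 and limma-voom (limma 3.58.1). On simulated data of 15795 genes, the test recovered 173 of 200 genes changed 2-fold (86.5%). The simulated libraries were drawn independently, with no shared numbers, no sex difference within CKO and no outlying library. That share therefore does not give the recovery in the real libraries.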

Additional observations from a re-analysis of the deposited data

Results flagged for a closer look

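The test of the difference in age change between CKO and Control passed for 12 of the genes named above in the fit of all 12 libraries. These calls were not stable: no more than 1 gene of all tested passed in either direction when any of 5 single libraries was left out, and none when libraries of a shared number were summed or a term for sex was added. Each value is the CKO log2 fold change of P36 over P14 minus that in Control. The fitted value was more positive in CKO for the imprinted gene Peg3 (0.52), the collagen chain gene Col5a1 (0.98) and the actin-bundling gene Fscn1 (0.89), which all fell in both genotypes. The fitted value was more negative in CKO for the mesothelial marker Gpm6a (-1.48), lysozyme Lyz2 (-1.10), the macrophage genes Chil3 (-1.93) and Itgax (-0.96), the monocyte receptor Ccr2 (-1.25), the class II regulator H2-Ob (-0.83) and the interferon-induced Ifit3 (-0.82) and Ifit1 (-0.74), which all rose in both. For Ctgf it was -1.54, with a fall in CKO and no call in Control. Sex, which follows age in CKO and not in Control, cannot be told apart from it in these values.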

How the results depend on the processing

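For P36 against P14 in CKO, summing libraries of a shared number gave 1031 rises and 1041 falls, a term for sex 889 and 1103, both together 24 and 24, and summing without CKO P36 replicate 3 gave 756 and 726. Leaving out each CKO library in turn gave 1202 to 2244 rises and 1202 to 1868 falls. For Control, both together gave 1829 rises and 1408 falls, and summing alone 1939 falls; leaving out a library gave 2382 to 3141 rises and 2417 to 3288 falls. For the difference of the age effects, DESeq2 gave 362 more positive and 666 more negative genes, limma-voom 26 and 71, no filter 41 and 101, library totals 80 and 83, and leaving out a library 0 to 303 and 0 to 383; summing, a term for sex or both gave 0 and 0. Of the 242 named genes, 51 no longer passed when summed, 102 with a term for sex, 208 with both, 81 when summed without CKO P36 replicate 3, 30 without CKO P36 replicate 3 and 2 with DESeq2, and 1 reversed: Gli1, at 0.23 with a term for sex and 0.26 with both. The causes were not tested. Replicate numbers did not pair the CKO ages (correlation of deviations 0.04, -0.02 and 0.04); a replicate block gave 2104 rises and 1958 falls, and 9 named genes no longer passed. With 3 libraries a group, 2 of which share a number at P14, small changes could be missed.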
